A study of Homo sapiens with 9 samples.

Results

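Of the long non-coding RNA (lncRNA) genes, 10 well known ones are described here across all libraries of an RNA sequencing experiment on protamines: MALAT1, NEAT1, NORAD, OIP5-AS1, TUG1, KCNQ1OT1, MEG3, H19, DANCR and CYTOR. They were taken by name, and all 10 symbols matched 1 gene each among the 57338 genes of the table. By the labels and methods, the RNA came from HEK293T, a line of human embryonic kidney cells that carries the SV40 large T antigen. The methods describe cells transiently transfected with a pcDNA3.1 plasmid, with live cells of high EGFP signal sorted 3 days later. By that description every group carried a plasmid and EGFP, which was not measured here. The empty vector group was to express EGFP alone. The hPRM1 group was to express EGFP fused to human protamine 1 and the hPRM2 group EGFP fused to human protamine 2, with 3 libraries each. Protamines are the small basic proteins that replace histones in sperm, and the comparisons ask how the transcriptome of a somatic cell differs when 1 of them is made. No source used here says that the libraries of a group came from separate cultures, so p-values measure only the spread between these libraries, which may be technical.

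The check of the labels concerns every comparison with hPRM1. PRM2 was listed at 71224, 60050 and 36130 RPKM in the hPRM2 libraries and at 0 in the other 6, whereas PRM1 was listed at 0 in all 9 libraries, those labelled hPRM1 included. The 13 HEK293T markers summed to between 836 and 931 RPKM for the empty vector and between 687 and 730 RPKM for hPRM2. In the libraries labelled hPRM1 they summed only to between 147 and 209 RPKM, and 1 or 2 of the 13 reached 1 RPKM. VIM alone made up nearly all of that sum, at 145 to 207 RPKM. In the same 3 libraries the 10 haemoglobin and red cell markers, led by HBA2 and HBB, summed to between 2.06e+06 and 2.27e+06 RPKM, the 11 neutrophil and monocyte markers to between 6343 and 7413 RPKM and the 10 lymphocyte markers to between 657 and 898 RPKM. The largest sums of these lists in the other 6 libraries were 18.2, 20.7 and 0 RPKM, and the 6 platelet markers summed to between 336 and 595 RPKM against at most 32.1 RPKM. The part of these transcripts in the results was not tested. The libraries labelled hPRM1 also carry library numbers of another series, so that their batch cannot be told apart from their condition, and in bulk RNA fewer cells of a type cannot be told apart from less RNA per cell.

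Long non-coding RNAs are transcribed and usually processed like messenger RNA but are not translated into a defined protein. MALAT1 and NEAT1 stay in the nucleus, where MALAT1 gathers at nuclear speckles, the stores of splicing factors, and NEAT1 is the scaffold of paraspeckles, which form around its long isoform with the proteins NONO and SFPQ. NORAD, OIP5-AS1, DANCR and CYTOR have been described mainly, or also, in the cytoplasm, and OIP5-AS1 is known for its near-complete pairing with the microRNA miR-7. KCNQ1OT1, MEG3 and H19 are imprinted, with 1 parental allele silent, and TUG1 is spliced and found in both compartments.

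OIP5-AS1, also known as cyrano, is shown first for its site for this microRNA. OIP5-AS1 (ENSG00000247556) lies on the plus strand of chromosome 15 from 41283990 to 41309737 (GRCh38, GENCODE 29), overlaps the gene OIP5 on the other strand, and its longest transcript holds 4 exons and 8829 bases. The seed of hsa-miR-7-5p (RefSeq; bases 2 to 8 in capitals) pairs with the letters GTCTTCC, which occurred 3 times on the transcript strand of OIP5-AS1. Over the 16054 lncRNA genes of the annotation, each by its longest transcript, they occurred 0.0901 times per kilobase, and 9.29% of the genes held them at least once. The match at chr15:41300592-41300598, in the last exon, is printed with its match in capitals. In the longest transcripts of the other members the seed match occurred 6 times in KCNQ1OT1 (91667 bases), 2 times in MEG3 (12990 bases), 1 time in DANCR (904 bases) and 0 times in the other 6. Letters that match are a description of the sequence and do not show that the microRNA is bound.
hsa-miR-7-5p: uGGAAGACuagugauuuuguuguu
OIP5-AS1 seed match 2: aacaacaaaatcaccaatGTCTTCCatttt

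Expression was deposited as RPKM, a count divided by the gene length and the library total, from a kit that primes on poly(A) and enriches 3′ ends. The reads on genes estimated from the spacing of low values were 7.93e+06 to 1.08e+07 for the empty vector, 4.21e+06 to 5.86e+06 for the libraries labelled hPRM1 and 1.27e+06 to 2.65e+06 for hPRM2. This is an indirect estimate and no read count was used here. The paper reports the mean number of reads obtained per group, with fewer for hPRM1 than for hPRM2, an order unlike that of this estimate. Why they differ was not tested. With 0 listed, up to 3 reads remain possible from counting error alone, by this estimate at most 0.378 CPM in the empty vector, 0.713 CPM in a library labelled hPRM1 and 2.36 CPM in hPRM2. The first hPRM2 library had 9652 genes above 0, against 14353 and 15633 in hPRM2 libraries 2 and 3. Its Pearson's r with them over 14901 genes was 0.673 and 0.703, against 0.862 between libraries 2 and 3. For genes with several transcripts the length by which a value was divided may have differed between libraries. Ratios of low values between pairs of the libraries labelled hPRM1 were compared with ratios of 1 to 3 whole reads. They matched within 0.3% for 79.2% to 81.2% of single-transcript genes, but for only 30.7% to 32.0% of the others. Low values of the others were picked by median transcript length, so values of more than 3 reads could enter. Fractional read counts could lower the share as well. Of the members, NORAD and KCNQ1OT1 have 1 transcript. For the other 8, a level and a shift between transcripts of different length cannot be told apart, which matters most for NEAT1, whose transcripts range from 512 to 22743 bases.

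MALAT1 was the most abundant member in every group, at 1412 ± 769 RPKM in the empty vector, 1168 ± 194 RPKM in the libraries labelled hPRM1 and 2039 ± 176 RPKM in hPRM2 (SD, n = 3 each). Below it, the order in the empty vector was OIP5-AS1, DANCR, CYTOR, NORAD, NEAT1, H19, KCNQ1OT1, TUG1 and MEG3, in which MALAT1 stood apart from OIP5-AS1, CYTOR from NORAD and NORAD from NEAT1, while all other neighbours overlapped. In the libraries labelled hPRM1 CYTOR and NEAT1 followed MALAT1, and only MALAT1 against CYTOR, CYTOR against NEAT1 and MEG3 against H19 did not overlap. In hPRM2 DANCR, NEAT1 and OIP5-AS1 followed, with MALAT1 above DANCR, NORAD above TUG1 and TUG1 above KCNQ1OT1 without overlap. NEAT1 thus held position 6 of 10 in the empty vector and position 3 of 10 in both other groups. This is an order of RPKM, which divides by length although the kit enriches 3′ ends, so long transcripts stand lower than by reads. KCNQ1OT1 (91667 bases) had an estimated 1441, 1543 and 528 reads in the empty vector, against 796, 819 and 1180 for NORAD (5339 bases).

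**Figure D1:**
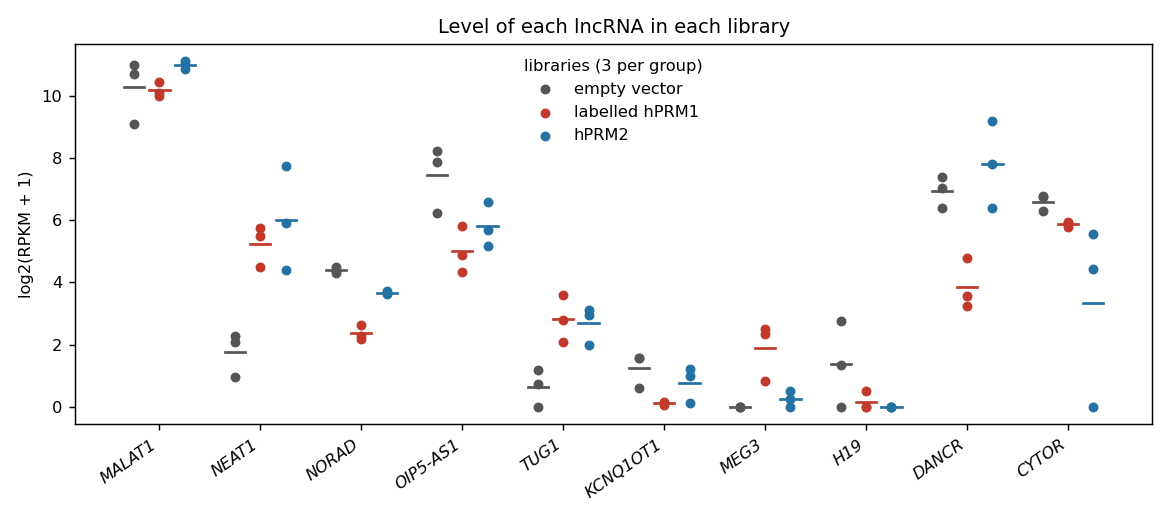
Level of each lncRNA as log2(RPKM + 1) in the 9 libraries. Points are libraries, coloured by group, and short bars are group means on that scale. NEAT1 and TUG1 of the empty vector lie below those of both other groups, and NORAD of the libraries labelled hPRM1 lies below that of the other groups.

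Each comparison was fitted with limma on log2(RPKM + 1) over all genes with at least 1 RPKM in at least 3 of its 6 libraries, and a gene was called at a Benjamini-Hochberg adjusted p of at most 0.05 and a change of at least 2-fold. All fold changes are on this scale, which understates the change of low genes. The libraries labelled hPRM1 differed from the empty vector by a median of -1.72 over all 13588 genes tested, hPRM2 from the empty vector by -0.72 over 13126 genes, and the libraries labelled hPRM1 from hPRM2 by -0.97 over 11756 genes. Rescaling by the median of ratios, which sets the libraries to a common typical gene, moved these medians to 0.14, -0.20 and 0.55. A change of a member is therefore also given relative to the median of all genes. Comparisons with the empty vector share its 3 libraries, so their values stand side by side and are no support for each other.

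In the libraries labelled hPRM1, 7 of the 10 members passed the filter, and NEAT1 and TUG1 were called higher while NORAD, OIP5-AS1 and DANCR were called lower than in the empty vector. Of all genes tested, 12.9% were called higher and 62.5% lower, so that 3 of 7 members lower is below the share of all genes and 2 of 7 higher is above it, on very few genes. The 1750 genes higher became 664 to 734 without 1 of the libraries labelled hPRM1, and the 8491 lower became 5606 to 5917 without 1 of the empty vector. The filter still asked for 3 libraries, so genes reaching 1 RPKM only in the reduced group could not be tested. Genes tested fell from 13588 to between 12365 and 12430, and to between 10512 and 10665, so these counts are not like for like. After rescaling, MALAT1, NEAT1, TUG1 and CYTOR were called higher and 0 members lower, against 32.6% and 25.1% of all genes. NEAT1 and TUG1 were thus the 2 members called in the same direction under both scalings. TUG1, however, passed the filter through the libraries labelled hPRM1, at 3.29, 11.002 and 5.94 RPKM. The empty vector libraries were at 0.669, 1.30 and 0 RPKM. TUG1 stayed called without a filter (adjusted p = 0.0105, limma) and was not tested with the filter of 10 RPKM. The per-gene test of the methods, which shares no variance between genes, called NORAD alone (adjusted p = 0.0092). In hPRM2, 8 members passed the filter and 0 were called by limma or by the per-gene test of the methods (1.36% of all genes were called higher and 1.37% lower), although 4 of them, NEAT1, OIP5-AS1, TUG1 and CYTOR, had an unadjusted p under 0.05. Rescaling led to 1 call, NEAT1 higher, against 1.63% of genes higher and 0.442% lower.

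**Figure D2:**
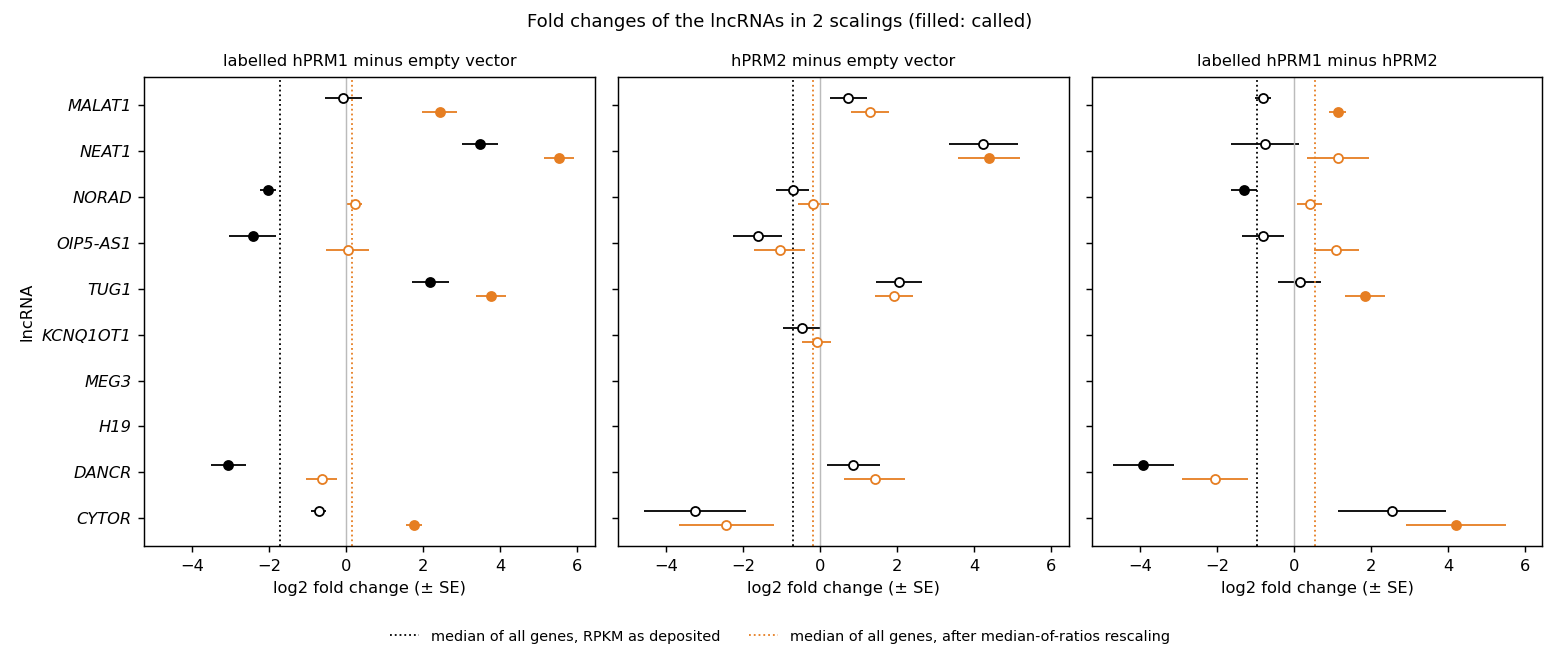
Log2 fold changes (± SE) of the lncRNAs in the 3 comparisons from the RPKM as deposited (black) and after median-of-ratios rescaling (orange). Filled points are called, open points are not, dotted lines mark the median of all genes tested, and members without a point did not pass the filter on low values. NEAT1 and TUG1 lie to the right of the median of their own scaling in both comparisons with the empty vector, and each DANCR point of the libraries labelled hPRM1 lies to the left of the median of its own scaling.

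Among the nuclear members, MALAT1 (ENSG00000251562) lies on chromosome 11 from 65497688 to 65506516, plus strand, and its longest transcript is a single exon. Its level was 2021, 1666 and 547 RPKM with the empty vector, 1023, 1389 and 1092 RPKM in those labelled hPRM1, and 2075, 2193 and 1847 RPKM in hPRM2. Empty vector library 3 was the lowest of the 9, and the libraries labelled hPRM1 overlapped with the empty vector but all lay below hPRM2. MALAT1 of the libraries labelled hPRM1 differed from the empty vector by -0.08 (SE 0.49, adjusted p = 0.883, limma), 1.63 above the median of all genes, and rescaling turned this into a called rise of 2.43 (adjusted p = 0.00342). Against hPRM2 its value was -0.81 (SE 0.20, adjusted p = 0.0137), under the 2-fold limit and 0.16 above the median, and it was called higher by 1.13 after rescaling (adjusted p = 0.0062). In hPRM2 against the empty vector it was 0.73 (SE 0.49, adjusted p = 0.366), with an interval from -0.42 to 1.88. By its rank among all genes of a library, which needs no scaling, MALAT1 stood between 45 and 54 in the libraries labelled hPRM1, between 159 and 164 in hPRM2 and between 111 and 368 in the empty vector.

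NEAT1 (ENSG00000245532) is the neighbour of MALAT1 on chromosome 11, from 65422774 to 65445540 on the plus strand. It was measured at 3.24, 3.797 and 0.969 RPKM in the empty vector, at 43.7, 53.0 and 21.3 RPKM in the libraries labelled hPRM1 and at 210.4, 59.1 and 19.9 RPKM in hPRM2. All 6 libraries of the other groups lay above the empty vector, and the values of hPRM2 spread over the widest range, led by its first library. Across all genes too, that library was less like the other hPRM2 libraries than these were to each other. NEAT1 rose by 3.47 (SE 0.47, adjusted p = 0.000486, limma) in the libraries labelled hPRM1, 5.18 above the median of all genes, and by 5.53 after rescaling. In hPRM2 it was 4.23 higher (SE 0.90), a larger estimate with an adjusted p of 0.0579 that misses the threshold, and it was called after rescaling (4.39, adjusted p = 0.0493), with all 9 libraries in 1 fit (adjusted p = 0.0119) and without the first hPRM2 library (3.37, adjusted p = 0.0314). Between the libraries labelled hPRM1 and hPRM2 the difference was -0.77 (SE 0.88, adjusted p = 0.503), with an interval from -2.90 to 1.36, and rescaling turned the sign without a call. Within a library, NEAT1 made up 0.0016 to 0.00228 of the MALAT1 level in the empty vector, 0.0195 to 0.0427 in the libraries labelled hPRM1 and 0.0108 to 0.101 in hPRM2, so the ratio of both neighbours did not overlap with the empty vector in either group.

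TUG1 (ENSG00000253352; chromosome 22, 30969245 to 30979395, plus strand) was low in the empty vector, at 0.669 and 1.30 RPKM and listed at 0 in library 3. It was measured at 3.29, 11.002 and 5.94 RPKM in the libraries labelled hPRM1 and at 7.59, 6.80 and 3.00 RPKM in hPRM2. Both groups lay above the empty vector and overlapped with each other. TUG1 rose by 2.18 (SE 0.48, adjusted p = 0.00466, limma) in the libraries labelled hPRM1, 3.90 above the median of all genes, and by 3.75 after rescaling. In hPRM2 it was 2.04 higher (SE 0.59, adjusted p = 0.102) and was called only with all 9 libraries in 1 fit (adjusted p = 0.0402). The difference between both groups was 0.14 (SE 0.55, adjusted p = 0.854), with an interval from -1.21 to 1.48, and was called higher by 1.83 in the libraries labelled hPRM1 after rescaling.

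Of the members linked to the cytoplasm, NORAD (ENSG00000260032; chromosome 20, 36045622 to 36050960, minus strand) is a single exon of 5339 bases in GENCODE 29 (GRCh38) and kept close values within each group. Its level was 19.7, 18.8 and 21.5 RPKM with the empty vector, 3.55, 5.13 and 3.87 RPKM in those labelled hPRM1 and 12.1, 11.6 and 11.5 RPKM in hPRM2. The 3 groups did not overlap, in the order empty vector, hPRM2 and libraries labelled hPRM1. With its single transcript, the reads behind these values could be estimated as 796, 819 and 1180.4, then 106, 110 and 103, and then 163, 75.4 and 94. NORAD fell by 2.03 (SE 0.21, adjusted p = 0.00013, limma) in the libraries labelled hPRM1 against the empty vector, which is -0.31 relative to the median of all genes, and after rescaling it stood at 0.22 (adjusted p = 0.362). In hPRM2 it stood at -0.72 (SE 0.42, adjusted p = 0.314), equal to the median of all genes. Between the libraries labelled hPRM1 and hPRM2 it fell by 1.31 (SE 0.35, adjusted p = 0.0197), -0.33 relative to the median. This call was lost without any 1 of the libraries labelled hPRM1, with values that stayed between -1.43 and -1.22, and turned to 0.40 (adjusted p = 0.367) after rescaling. Rescaled values of NORAD spanned 7.01 to 12.1 RPKM over all 9 libraries, and its direction in the libraries labelled hPRM1 follows the scaling.

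OIP5-AS1, which holds the miR-7 seed matches, was measured at 232, 299 and 73.8 RPKM in the empty vector, at 19.0, 55.5 and 28.1 RPKM in the libraries labelled hPRM1 and at 34.6, 95.3 and 50.4 RPKM in hPRM2. The libraries labelled hPRM1 lay below the empty vector without overlap, and hPRM2 overlapped with both. It fell by 2.44 (SE 0.61, adjusted p = 0.00875, limma) in the libraries labelled hPRM1, -0.72 relative to the median of all genes, and stood at 0.03 (adjusted p = 0.965) after rescaling. In hPRM2 it was at -1.63 (SE 0.63, adjusted p = 0.169), and the libraries labelled hPRM1 and hPRM2 differed by -0.81 (SE 0.55, adjusted p = 0.269), a sign that turned after rescaling. The sources do not say whether strand was used in counting, so reads of OIP5-AS1 and of OIP5 on the other strand cannot be told apart where they overlap.

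DANCR (ENSG00000226950; chromosome 4, 52712404 to 52720351, plus strand) is a host gene of small nucleolar RNA, and its transcripts are short, at most 904 bases. It was measured at 164, 128 and 83.7 RPKM in the empty vector, at 8.53, 26.5 and 10.7 RPKM in the libraries labelled hPRM1 and at 82.2, 575 and 223 RPKM in hPRM2. All libraries labelled hPRM1 lay below the other 6, and hPRM2 overlapped with the empty vector through its first library. DANCR fell by 3.07 (SE 0.46, adjusted p = 0.000749, limma) against the empty vector, -1.35 relative to the median of all genes, and by 3.92 (SE 0.79, adjusted p = 0.00689) against hPRM2, -2.95 relative to the median. After rescaling it stood at -0.64 (adjusted p = 0.196) and at -2.06 (adjusted p = 0.095), without a call. Quantile normalization kept both calls, at -1.40 (adjusted p = 0.0212) and -2.48 (adjusted p = 0.0298), and the total without the top 50 genes kept the one against the empty vector, at -1.47 (adjusted p = 0.0216). In hPRM2 against the empty vector it was 0.86 higher (SE 0.69, adjusted p = 0.449), with an interval from -0.78 to 2.50. This value was 1.56 (adjusted p = 0.0661) without the first hPRM2 library and 0.16 (adjusted p = 0.882) without the second.

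CYTOR (ENSG00000222041; chromosome 2, 87454781 to 87636740, plus strand) has the near-copy MIR4435-2HG on the same chromosome, so reads may be split between both and its values are uncertain. It was measured at 108, 76.6 and 105 RPKM in the empty vector, at 60.7, 58.4 and 53.5 RPKM in the libraries labelled hPRM1 and at 20.4 and 46.2 RPKM in hPRM2, where the first library lists it at 0. The 3 groups did not overlap, with hPRM2 lowest. MIR4435-2HG was measured at 31.6 to 45.0 RPKM in the empty vector, at 34.7 to 53.8 RPKM in the libraries labelled hPRM1 and at 17.1 to 53.3 RPKM in hPRM2, which overlap. CYTOR of the libraries labelled hPRM1 differed from the empty vector by -0.72 (SE 0.20, adjusted p = 0.0124, limma), under the 2-fold limit and 0.99 above the median of all genes, and was called higher by 1.76 after rescaling (adjusted p = 0.000492). In hPRM2 it was at -3.26 (SE 1.33, adjusted p = 0.185), and without the first hPRM2 library it was called lower, at -1.601 (adjusted p = 0.0476). The libraries labelled hPRM1 against hPRM2 gave 2.54 (SE 1.40, adjusted p = 0.178) and a called rise of 4.201 after rescaling. The unscaled difference came down to 0.88 (adjusted p = 0.0867) without the first hPRM2 library.

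The imprinted members did not exceed 5.75 RPKM in any library. KCNQ1OT1 (ENSG00000269821; chromosome 11, 2608328 to 2699994, minus strand) is transcribed against KCNQ1 and silences neighbouring genes in cis. It was measured at 1.99, 1.97 and 0.536 RPKM in the empty vector, at 0.056, 0.114 and 0.09 RPKM in the libraries labelled hPRM1 and at 0.0992, 1.31 and 1.001 RPKM in hPRM2. These values correspond to an estimated 1441, 1543 and 528 reads, to 30, 44 and 43 reads, and to 24, 152 and 147 reads. Those labelled hPRM1 lay below the empty vector without overlap, at a ratio of the means of 17.3 (exact permutation test, two-sided p = 0.1, the smallest that 3 against 3 allows). After rescaling both groups overlapped, at a ratio of 3.06 (exact permutation p = 0.2). The gene did not pass the filter on low values in that comparison, and without this filter limma called it lower (-1.14, SE 0.34, adjusted p = 0.0318). The first hPRM2 library was as low as the libraries labelled hPRM1, and hPRM2 differed from the empty vector by -0.48 (SE 0.49, adjusted p = 0.543, limma). Between the libraries labelled hPRM1 and hPRM2 the exact permutation test gave p = 0.2. KCNQ1, on the other strand, was measured at 6.31 ± 1.75 RPKM (SD, n = 3) in the libraries labelled hPRM1, 2.87 RPKM on average in the empty vector and 0.954 ± 1.05 RPKM (SD, n = 3) in hPRM2, and its level in the libraries labelled hPRM1 was called higher than that in hPRM2 (2.02, SE 0.53, adjusted p = 0.0185, limma).

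MEG3 (ENSG00000214548; chromosome 14, 100779410 to 100861031, plus strand) was listed at 0 in all 3 empty vector libraries. It was measured at 0.788, 4.04 and 4.62 RPKM in the libraries labelled hPRM1, and at 0, 0.185 and 0.439 RPKM in hPRM2. Those labelled hPRM1 lay above all other 6 libraries (exact permutation test, two-sided p = 0.1 against either group, the smallest possible), at a ratio of the means to hPRM2 of 15.1. Without the filter on low values limma called it higher than with the empty vector (adjusted p = 0.0176) but not than in hPRM2 (adjusted p = 0.0988). The hPRM2 values above 0 rest on at most 3 and 9 reads. DLK1, the protein-coding neighbour at the same imprinted locus, was listed at 0 in all 9 libraries.

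H19 (ENSG00000130600; chromosome 11, 1995176 to 2001470, minus strand) was measured at 5.75 and 1.52 RPKM in empty vector libraries 1 and 3 and listed at 0 in library 2. It was listed at 0 in the 3 hPRM2 libraries and in all but library 2 of those labelled hPRM1, at 0.433 RPKM. The groups overlapped, with an exact permutation p of 0.4 for either group against the empty vector. IGF2, the growth factor gene next to H19, was called lower in the libraries labelled hPRM1 than in the empty vector (-2.28, SE 0.29, adjusted p = 0.000335, limma), from 4.59 to 0.124 RPKM on average, and stood at -1.36 (adjusted p = 0.244) in hPRM2. Against the libraries labelled hPRM1, IGF2 passed the filter only through the empty vector. IGF2, KCNQ1 against the empty vector and DLK1 were chosen here for their position after their values were seen.

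In the libraries labelled hPRM1 against hPRM2, 7 members passed the filter, of which NORAD and DANCR were called lower and 0 higher. Of all genes tested, 37.0% were called lower and 16.0% higher. After rescaling MALAT1, TUG1 and CYTOR were called higher and 0 lower, against 30.8% and 18.5% of all genes. Under quantile normalization DANCR was still called lower and NORAD was not. Ratios within a library do not depend on the scaling. Those of MALAT1, CYTOR and DANCR over NORAD may still carry the length used in each library, as these members have several transcripts. MALAT1 over NORAD was 102, 88.6 and 25.5 with the empty vector, 288, 271 and 282 in those labelled hPRM1 and 172, 188 and 161 in hPRM2, without overlap between the groups. CYTOR over NORAD was 4.07 to 5.48 in the empty vector and 11.4 to 17.1 in the libraries labelled hPRM1, and in hPRM2 it was 1.75 and 4.02 beside the library that lists CYTOR at 0. DANCR over NORAD was 3.89 to 8.33 in the empty vector, 2.40 to 5.16 in the libraries labelled hPRM1 and 6.81 to 49.4 in hPRM2, so the libraries labelled hPRM1 and hPRM2 stood apart and the empty vector overlapped with both.

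The proteins that work with these RNAs were counted from fixed lists, to be read beside the 62.5% lower and 12.9% higher of all genes in the libraries labelled hPRM1 against the empty vector, and 25.1% and 32.6% after rescaling. Of 20 paraspeckle proteins, 19 were called lower in the libraries labelled hPRM1 than in the empty vector and 0 higher (median -2.07, all genes -1.72), while NEAT1 rose. FAM98A fell from 13.5 ± 2.33 to 0.448 ± 0.0807 RPKM (SD, n = 3 each; -3.32, SE 0.21, adjusted p = 1.87e-05, limma) and SMARCA4, the helicase of a chromatin remodelling complex, from 138 ± 56.4 to 15.1 ± 9.87 RPKM (-3.29, SE 0.66, adjusted p = 0.00314). FAM98A passed the filter only through the group compared with the libraries labelled hPRM1. After rescaling 1 was called lower and 2 higher (median 0.37, all genes 0.14), so that the direction of the list follows the scaling. In hPRM2, limma called 0 of 20 (median -0.45, all genes -0.72), with 2 at an unadjusted p under 0.05. Against hPRM2 the libraries labelled hPRM1 had 13 of 20 lower and 0 higher, again led by SMARCA4 and FAM98A, beside 37.0% lower and 16.0% higher of all genes. After rescaling this was 1 each way, beside 18.5% and 30.8%.

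Of 24 nuclear speckle proteins, 17 were called lower in the libraries labelled hPRM1 than in the empty vector (median -1.55, all genes -1.72) and 0 higher, beside 62.5% and 12.9% of all genes. The splicing factors SRSF7 and SRSF3 fell most, SRSF7 from 447 ± 12.6 to 21.5 ± 6.03 RPKM (SD, n = 3 each; -4.35, SE 0.23, adjusted p = 9.88e-06, limma) and SRSF3 from 172 ± 23.1 to 10.1 ± 2.11 RPKM (-3.97, SE 0.22). Rescaling left 2 lower and 10 higher (median 0.82, all genes 0.14). In hPRM2, limma called 0 of 24 against the empty vector (median -0.31), with 4 at an unadjusted p under 0.05, and against hPRM2 the libraries labelled hPRM1 had 10 of 24 lower, led by SRSF7 and PNN, and 0 higher (37.0% and 16.0% of all genes), which became 3 lower and 5 higher after rescaling. MALAT1, at home in these speckles, was not called in any of the 3 comparisons as deposited.

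Of 22 proteins that bind or process lncRNA, 17 were called lower in the libraries labelled hPRM1 than in the empty vector and 0 higher (median -2.43, all genes -1.72), beside 62.5% and 12.9% of all genes. After rescaling this was 5 each way (median -0.22, all genes 0.14). IGF2BP1 and IGF2BP3 are RNA-binding proteins of fetal cells and are also among the HEK293T markers. IGF2BP1 was listed at 0 in the 3 libraries labelled hPRM1 against 21.4 ± 3.71 RPKM (SD, n = 3) in the empty vector. IGF2BP3 fell from 16.6 ± 2.34 to 0.159 ± 0.153 RPKM (SD, n = 3 each). Both genes passed the filter only through the group compared with the libraries labelled hPRM1. In hPRM2, limma called 0 of 22 (median -0.75), with 2 at an unadjusted p under 0.05, and the libraries labelled hPRM1 had 10 lower and 0 higher than hPRM2, led by RPP30, a subunit of RNase P, and IGF2BP3, beside 37.0% and 16.0% of all genes. Rescaling turned these counts into 3 lower and 4 higher.

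Of 27 imprinted or neighbouring genes, 21 passed the filter, and against the empty vector 15 were called lower and 0 higher in the libraries labelled hPRM1 (median -2.28, all genes -1.72), beside 62.5% and 12.9% of all genes. Rescaling gave 6 each way (median -0.08, all genes 0.14). PHLDA2, an imprinted gene near KCNQ1OT1, fell from 171 ± 34.3 to 1.58 ± 0.52 RPKM (SD, n = 3 each; -6.06, SE 0.25, adjusted p = 4.7e-06, limma) and NUSAP1, a mitotic spindle protein gene near OIP5-AS1, from 135 ± 36.7 to 1.51 ± 0.648 RPKM (-5.76, SE 0.29). In hPRM2, limma called 0 of 21 (median -0.69), with 6 at an unadjusted p under 0.05. Against hPRM2, of 18 tested, 7 were lower, led by PHLDA2 and OIP5, and KCNQ1 was the 1 gene higher (37.0% and 16.0% of all genes), and after rescaling 3 were lower and 7 higher. OIP5, a mitotic gene and antisense partner of OIP5-AS1, fell from 28.6 ± 5.34 to 0.187 ± 0.194 RPKM (SD, n = 3 each; -4.64, SE 0.37, adjusted p = 0.000246, limma), whereas OIP5-AS1 was not called in that comparison. There OIP5 passed the filter only through hPRM2.

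**Figure D3:**
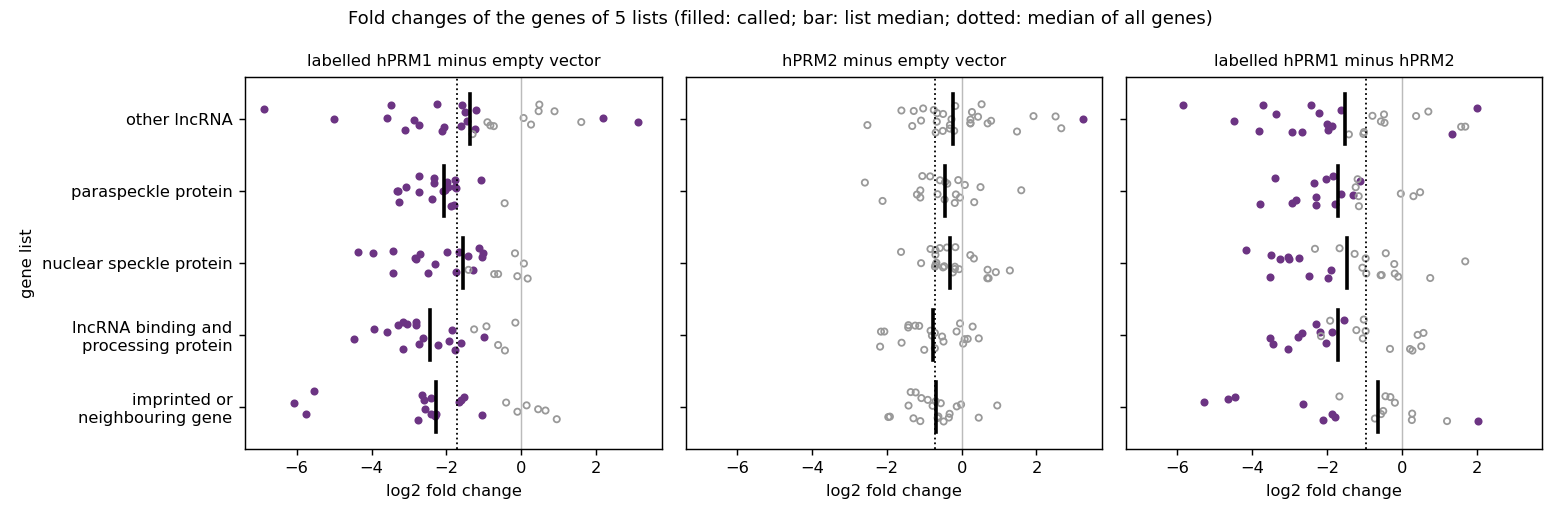
Log2 fold changes of the tested genes of 5 lists in the 3 comparisons, from the RPKM as deposited. Filled points are called genes, open points are not, black bars are list medians and the dotted line is the median of all genes. In hPRM2 against the empty vector, 1 lncRNA gene alone is filled, and in the libraries labelled hPRM1 most filled points lie left of 0, as the median of all genes does.

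Among 46 other lncRNA genes, 43 were found in the table and 28 passed the filter in the libraries labelled hPRM1 against the empty vector, with 2 called higher and 16 lower (median -1.37, all genes -1.72), and with 10 higher and 3 lower after rescaling (median 0.49, all genes 0.14). Of all genes, 12.9% were higher and 62.5% lower, and 32.6% and 25.1% after rescaling. MIAT rose from 0.0434 ± 0.0751 to 8.13 ± 1.99 RPKM (SD, n = 3 each; 3.11, SE 0.25, adjusted p = 4.4e-05, limma) and PCBP1-AS1 from 5.10 ± 5.56 to 17.5 ± 3.67 RPKM (2.20, SE 0.86, adjusted p = 0.0498). CRNDE was listed at 0 in the 3 libraries labelled hPRM1 against 119 ± 31.5 RPKM in the empty vector, and GAS5, like DANCR a host of small nucleolar RNA, fell from 844 ± 34.7 to 28.1 ± 15.5 RPKM. In hPRM2, 1 of 30 was called, beside 1.36% of all genes higher and 1.37% lower. This was LINC00511, listed at 0 in the empty vector and at 8.72 ± 2.39 RPKM (SD, n = 3) in hPRM2. Genes at or near 0 in 1 group, such as LINC00511, MIAT and CRNDE, passed the filter against the empty vector only through the group where they were higher. Against hPRM2 the libraries labelled hPRM1 had 2 of 26 higher, MIAT and LINC-PINT, and 13 lower, led by CRNDE and GAS5, beside 16.0% and 37.0% of all genes. After rescaling 7 were higher and 6 lower.

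For the 8 members with at least 1 RPKM in at least 3 libraries, the genes with the most similar pattern were searched among 13688 genes over the 9 libraries, which fall into 3 groups and share their scaling, so the values of Pearson's r describe these libraries only. NORAD followed TXLNA (r = 0.997) and ETNK2 (r = 0.994), and CYTOR followed MRPL20-AS1 (r = 0.996) and MRNIP (r = 0.988). NEAT1 and TUG1 had the same nearest gene, MVP, the major vault protein (r = 0.967 and 0.956), followed by DAZAP2 (r = 0.963) and LENG8 (r = 0.941), and their own r was 0.907. DANCR was nearest to RNPS1 (r = 0.979) and SRSF10 (r = 0.975), both splicing proteins of the nuclear speckle list. OIP5-AS1 was nearest to NUTM2B-AS1 (r = 0.961) and ARHGEF4 (r = 0.960), KCNQ1OT1 to SFTA3 (r = 0.986) and STAG2-AS1 (r = 0.984), and MALAT1 to BAZ2A (r = 0.940) and RN7SL452P (r = 0.908), the last a member of a family of near-identical copies with uncertain counts.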

How the data were processed

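RNA of 9 libraries, 3 per group, was made with a 3′-enriching QuantSeq kit and sequenced on a NovaSeq. Per the labels and methods, the authors processed the reads with nf-core/rnaseq (FastQC, Cutadapt, STAR, Salmon; versions not given in the sources used here) on hg38. They removed mitochondrial genes, divided each count by the library total and the gene length, and deposited RPKM values, without counts or pooling. The annotation is not given.

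Members and lists were chosen with earlier results of these data known. RPKM values were compared with limma 3.58.1 in R 4.3.3 (lmFit, eBayes with trend and robust, pseudocount 1, at least 1 RPKM in at least 3 of 6 libraries), with Benjamini-Hochberg adjustment over all genes tested, a threshold of 0.05 and at least 2-fold. Members below the filter were compared by two-sided exact permutation tests. The fit was tested on simulated data. Median-of-ratios factors used 7274 genes above 0 in all libraries. Reads on genes, 1.27e+06 to 1.08e+07 per library, were estimated from single-transcript genes of GENCODE 29 of 600 to 20000 bases, with 250 bases subtracted. Sequences come from GENCODE 29 and RefSeq, the build of the labels being hg38. Alternatives were other pseudocounts, filters and scalings, fitting all libraries together, blocking on the replicate number, omitting each library in turn, dropping the fold threshold, and the test per gene that the methods describe. Besides the members, named genes are the 2 largest rises and falls per list among called genes whose groups did not overlap, the 2 genes most like a member by Pearson's r, PRM1 and PRM2, and the leading markers, with exceptions stated. Python 3.11.15, pandas 2.3.3, numpy 2.4.6, SciPy 1.17.1 and matplotlib 3.10.9 were used. DNA methylation and imaging were not analysed here. A gene of a fixed list and results that need it are not reported here.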

Additional observations from a re-analysis of the deposited data

How the results depend on the processing

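The fold changes of the members that passed the filter were recomputed under up to 15 alternatives each, 326 values in all for 22 fold changes. Of these, 276 kept their direction and their side of the threshold, 13 lost a call and 11 gained one with the same sign. A further 12 changed sign and lost or gained a call, and 14 changed sign without a call on either side. NEAT1 and TUG1 stayed called higher in the libraries labelled hPRM1 against the empty vector under every one of these alternatives that tested them. Their values lay between 2.48 and 5.53 and between 1.01 and 3.75, though neither was called by the per-gene test of the methods. TUG1 was not tested with the filter of 10 RPKM, which NEAT1 passed only through the libraries labelled hPRM1. The main filter was passed by TUG1 through these same libraries. All 12 sign changes with a call lost or gained arose under another scaling. NORAD and OIP5-AS1 lost their calls in this way, and MALAT1 and CYTOR gained one. Against the empty vector, the libraries labelled hPRM1 then gave 2.43 (median of ratios), 1.97 (quantile normalization) and 1.59 (total without the top 50 genes) for MALAT1, 0.22 for NORAD and 0.0302 for OIP5-AS1 (median of ratios), and 1.76 and 1.04 for CYTOR (median of ratios and quantile). Against hPRM2, they gave 1.13, 1.83 and 1.12 for MALAT1, and 0.40 and 0.38 for NORAD (median of ratios and total without the top 50 genes).

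The number of members called in the libraries labelled hPRM1 against the empty vector was 5 and became 7 without a filter (KCNQ1OT1 lower and MEG3 higher in addition), 4 with the filter of 10 RPKM and 1 (NORAD) by the per-gene test of the methods, and stayed at 5 whichever library was left out. In hPRM2 it was 0 and became 1 by the median of ratios and by quantile normalization (NEAT1), 2 with all 9 libraries, and 0 to 2 with a library left out, the 2 without the first hPRM2 library. Between the libraries labelled hPRM1 and hPRM2 it was 2 and became 1 at a pseudocount of 5, 0 by the per-gene test, and 1 to 2 with a library left out, the 1 without any of the libraries labelled hPRM1. Genes called over the whole table in the libraries labelled hPRM1 against the empty vector numbered 10241, and 5837 with the filter of 10 RPKM and 4514 by the per-gene test, and 7422 to 9142 with a library left out. In hPRM2 they numbered 359, and 89 without a filter, 167 with the filter of 10 RPKM, 574 by the total without the top 50 genes, 2125 with all 9 libraries and 9 by the per-gene test. They ranged from 10 to 2257 with a library left out, the highest without the first hPRM2 library and under 50 without any other. Between the libraries labelled hPRM1 and hPRM2 they numbered 6234, and 3750 with the filter of 10 RPKM, 219 by the per-gene test, and 3419 to 6473 with a library left out, lowest without a library labelled hPRM1. With a library left out the filter still asked for 3 libraries, so genes reaching 1 RPKM only in the reduced group could not be tested.

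No pairing by replicate number was seen. Same-numbered libraries deviated from their group means with correlations from -0.078 to 0.080, and differently numbered ones from -0.102 to 0.106. With so few libraries this cannot show whether same-numbered libraries were made together. With the replicate block, 57 genes were called in hPRM2 against the empty vector, and NORAD lost its call between the libraries labelled hPRM1 and hPRM2 (adjusted p = 0.0842), which left 1 member. No call of another member changed with the block. Reads on genes per library are known by an indirect estimate alone, so limits on values listed at 0 are approximate. The levels of the 8 members with several transcripts may depend on the lengths used in each library.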
